A study of Mus musculus with 7 samples.

Results

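The genes described here are the 2 corticosteroid receptors and 8 genes that glucocorticoids induce in brain, 10 of the 48526 genes in the deposited table. They were chosen by gene symbol, with earlier results of these data known. They are the glucocorticoid receptor gene Nr3c1, the mineralocorticoid receptor gene Nr3c2, and the induced genes Fkbp5, Sgk1, Tsc22d3, Zbtb16, Pdk4, Sult1a1, Cdkn1a and Errfi1. All 10 were found in the table, and all 10 passed the filter on low values. RNA came from mouse brain, with no region named in the labels, in 7 libraries. The 4 on libraries are from mice with the V1S and SV2 constructs labelled glucose, and the 3 off libraries are from mice with the same constructs labelled Dox. Every mouse was 24 months old, and both groups carry the label DT Venus. The study's title concerns complementation of a fluorescent protein by α-synuclein oligomers, and no label used here names the promoter that drives the constructs. Doxycycline was present exactly where the constructs were off, and the glucose label exactly where they were on. The effects of drug, glucose and constructs therefore cannot be told apart.

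Glucocorticoids, corticosterone in the mouse, enter cells and bind 2 related nuclear receptors. The mineralocorticoid receptor binds corticosterone tightly and is abundant in the hippocampus, while the glucocorticoid receptor is present in nearly all brain cells and is engaged when hormone rises with stress or the daily rhythm. In the cytoplasm the receptor is held by chaperones of the Hsp90 system. Once bound by hormone it moves to the nucleus and acts at DNA elements made of inverted TGTTCT hexamers, where it raises genes such as Fkbp5, Sgk1 and Tsc22d3. These responses occur in neurons, glia and vessel cells.

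Promoter sequences are shown first, as the places searched for the element the receptors recognise. RefSeq promoter windows on GRCm38.p6, from 250 bases before to 50 bases after a start site, were found for 8 of the 10 genes, 17 windows in all. The palindrome of AGAACA, any 3 bases and TGTTCT, which reads the same on both strands, was present in 3 of all 32851 windows (0.00913%). One of these 3 windows belongs to Sgk1. Its palindrome starts 189 bases before an internal start site and lies in an intron of the longer Sgk1 transcripts. A looser form, of GNACA, any 3 bases and TGTNC, was present in 156 windows (0.475%), and among the 17 windows only in that same Sgk1 window, where it overlaps the stricter match. The single hexamer TGTTCT, or AGAACA on the other strand, was present in 6233 of all windows (19.0%) and in 5 of the 17, those of Sgk1, Sult1a1 and Tsc22d3. Matches inside the palindrome count among these. The capitals mark the match. The Sult1a1 and Tsc22d3 sites overlap no annotated gene. Further Sgk1 hexamers outside the palindrome, in the same window and in other Sgk1 windows, are not shown. Each site shown is printed on its gene's strand, 5′ to 3′, and a match is a description of these letters, not evidence of binding.
Sgk1, palindrome, plus strand, chr10:21993694-21993723: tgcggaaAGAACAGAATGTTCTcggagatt
Sult1a1, distal hexamer, minus strand, chr7:126676613-126676642: gaaaagtcccatTGTTCTaccttaagttta
Sult1a1, proximal hexamer, minus strand, chr7:126676435-126676464: ttttgtttctggAGAACAgccagtcctagc
Tsc22d3, hexamer, minus strand, chrX:140600690-140600719: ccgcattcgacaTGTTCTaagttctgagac

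The values are regularized logarithms (rlog) of normalised counts on the log2 scale, so a difference of 1 would be a doubling. The transformation pulls each gene towards its own mean, and differences are therefore understated, most at low counts. Depth per library is unknown, since only transformed values were used. Whether the libraries come from different animals is not in the labels, and p-values then measure only the spread between these samples, which may be technical. On replicate 1 lay among the off libraries on the first principal component of all tested genes, at -4.10 against -8.64 to -3.56 in off and 7.19 to 9.15 in the other on libraries, so calls that it decides are also given without it. Among 9 marker lists all neuron, astrocyte, oligodendrocyte, microglia, choroid plexus, endothelial and blood genes were detected. Their medians of on minus off were -0.08, -0.01, -0.05, -0.05, -0.01, 0.12 and -0.08, with 0 genes called by limma in any of these 7 lists and 3, 0, 0, 1, 0, 2 and 0 genes at an unadjusted p under 0.05. The neuron markers had summed levels of 17.90 to 17.95 in on and 17.90 to 18.03 in off, among the highest of the lists, as a check of the labelled tissue. In bulk tissue, fewer cells of a type and less RNA per cell cannot be told apart.

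Divided by transcript length, the levels of the 10 genes span about 3 log2 units. Tsc22d3, a leucine-zipper protein that restrains inflammatory transcription, had the highest level, at 10.10 on the scale of rlog minus log2 of the longest transcript in kilobases. Sgk1, a kinase that regulates ion channels and transporters, followed at 10.03, closer to Tsc22d3 than the spread between libraries. Nr3c1 came next at 9.52, beyond the spread from both neighbours. Errfi1, an inhibitor of the epidermal growth factor receptor, was at 8.87. Fkbp5 (8.59), Nr3c2 (8.57) and the cell-cycle inhibitor gene Cdkn1a (8.53) could not be ordered within their spread. The same held for the zinc-finger transcription factor Zbtb16 (7.94) and the phenol sulfotransferase Sult1a1 (7.93). Pdk4, a mitochondrial kinase that turns off pyruvate dehydrogenase, was lowest at 6.95. Of all tested genes with a length, 12% had a higher level per length than Tsc22d3 and 58.4% a higher level than Pdk4. The spread between libraries does not cover the choice of length, so this order holds for the longest transcript only. All exon bases together were 4903 for Sgk1, 7684 for Nr3c1 and 9468 for Fkbp5. Their longest transcripts were 3096, 6436 and 3858 bases.

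The comparison of on with off asks whether the receptors or their target genes differ with the constructs, the glucose label and doxycycline together. Of the 10 genes, 1 passed: Sult1a1 rose. The other 9 did not pass, 8 with positive and 1 with a negative difference. Over all 17896 genes tested by limma, 466 (2.60%) were called, 146 higher (0.816%) and 320 lower (1.79%). The median difference was 0.08 over the 10 genes and 0.003 over all tested genes. Of all tested genes, 9223 had a positive and 8673 a negative difference. The libraries of on and off were apart in 1 of the 10 genes, against 15.2% of all those tested (7.13% higher in on and 8.09% lower), and 2 of the 10 had an unadjusted p under 0.05, against 20.7%. These shares over 10 genes are near the background.

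**Figure D1:**
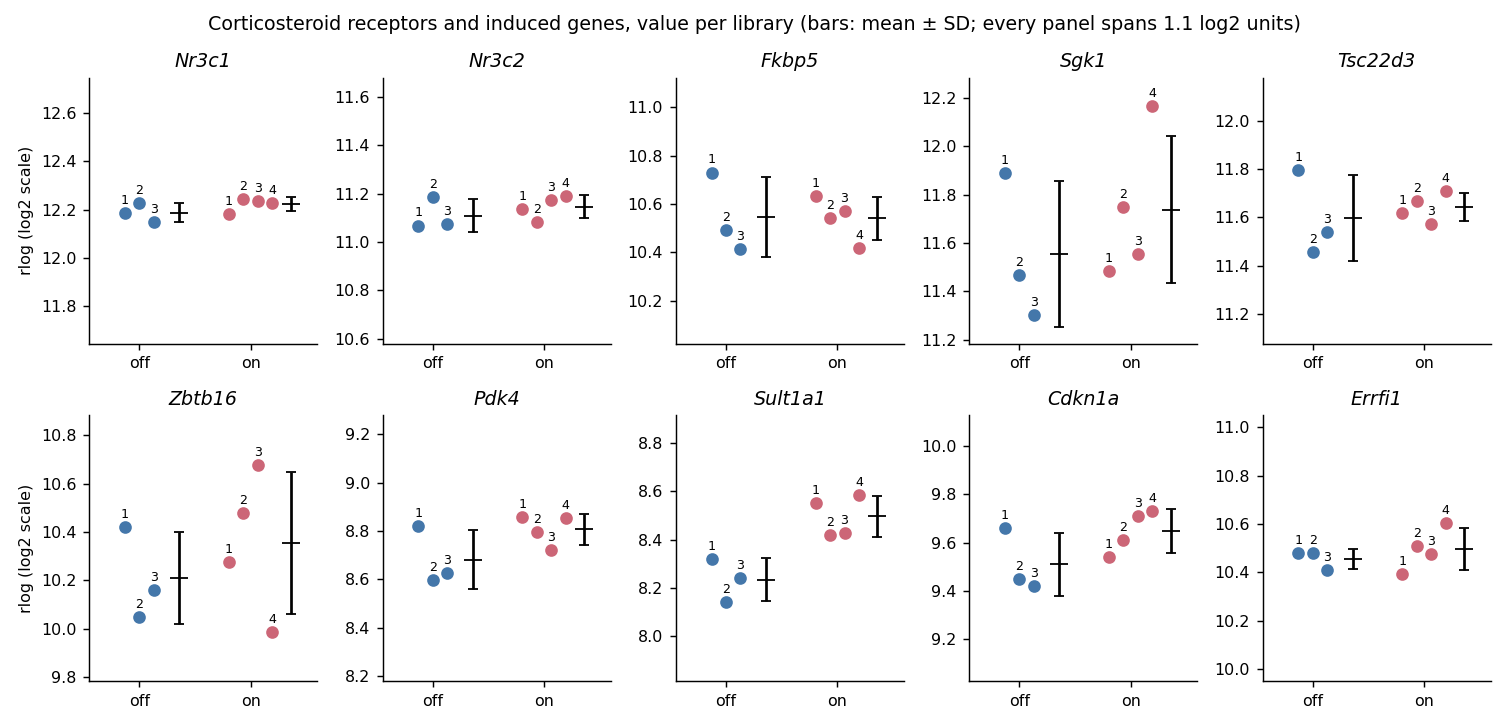
Rlog value (log2 scale) of each of the 10 genes in the 3 off libraries (blue) and 4 on libraries (red), numbered by replicate, with the mean ± SD of each group as a black bar. The on and off libraries are apart for Sult1a1, from 8.42 upward in on and 8.32 downward in off, and overlap in the other 9 panels.

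Nr3c1, the glucocorticoid receptor, was nearly flat across the series. Its rlog values were 12.18, 12.24, 12.24 and 12.23 in on replicates 1 to 4 and 12.19, 12.23 and 12.15 in off replicates 1 to 3. The groups overlapped, and all 7 libraries lay within 0.10 of each other. The difference of 0.04 ± 0.04 (SE, limma adjusted p = 0.614) had a 95% interval of -0.04 to 0.11. Its sign turned once trends of the libraries with GC content and transcript length had been removed, to -0.03 ± 0.03 (SE). Nr3c1 has a long transcript, 6436 bases against a median of 3158 over tested genes.

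Nr3c2, the mineralocorticoid receptor, was equally close between groups. It measured 11.13, 11.08, 11.17 and 11.19 in on replicates 1 to 4 and 11.07, 11.19 and 11.07 in the off libraries. The highest on and the highest off library were alike, at 11.19, and the difference was 0.04 ± 0.04 (SE, limma adjusted p = 0.665, 95% interval -0.05 to 0.13). After the GC and length correction it was -0.01 ± 0.04 (SE). Of its 6474 exon bases, 247 overlap a gene on the other strand, and whether counting used strand is not stated in the labels. The balance of the receptors, rlog of Nr3c2 minus rlog of Nr3c1, was -1.08 ± 0.06 (SD, n = 4) in on and -1.08 ± 0.04 (SD, n = 3) in off, and was not tested. It ran from -1.16 in on replicate 2 to -1.04 in on replicate 4, a span that holds all off libraries.

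Sult1a1 encodes a cytosolic sulfotransferase that adds sulfate to phenolic compounds. It lies at chr7:126672865-126676432 on the minus strand (GRCm38). Its rlog values were 8.55, 8.42, 8.43 and 8.58 in on replicates 1 to 4 and 8.32, 8.14 and 8.24 in off replicates 1 to 3. Every on library was above every off library, with on replicates 1 and 4 the highest and off replicate 2 the lowest. The mean was 8.50 ± 0.08 (SD, n = 4) in on and 8.24 ± 0.09 (SD, n = 3) in off. The difference of 0.26 ± 0.06 (SE, limma adjusted p = 0.0413, 95% interval 0.13 to 0.39) corresponds to 1.20 times the off level, and 1.06% of tested genes had a larger difference in either direction. Its transcript is short, at 1370 bases, while Spearman's rho of a library's deviations with transcript length, across genes, was 0.274 to 0.291 in on replicates 2 to 4, -0.059 in on replicate 1 and -0.316 to -0.233 in off. After the GC and length correction, which removes this trend, the difference was 0.30 ± 0.06 (SE, adjusted p = 0.038), with 105 genes (0.587%) called over all.

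The call on Sult1a1 rested on most of the libraries. With on replicate 2, 3 or 4 left out in turn, the limma adjusted p was 0.0557, 0.0977 and 0.136, and with off replicate 2 or 3 left out it was 0.216 and 0.124. It passed without on replicate 1 (0.0150) and when off replicate 1 was dropped (0.0455). The difference itself stayed between 0.22 and 0.30 in these 7 fits. Nuclear RNA genes, a list of 6 used here as an indirect sign of RNA quality, were highest in on replicates 2 to 4. Their mean deviation was 0.185 to 0.247 there, -0.113 in on replicate 1 and -0.324 to -0.084 in off. Summed levels overlapped, at 17.98 to 18.40 in on and 17.84 to 18.08 in off. The median difference was 0.27, and 2 of 6, Malat1 and Snhg14, were called higher. After the GC and length correction that median was 0.14, and 1 of 6, Malat1, was called. That list was lowest among on libraries in replicate 1, where Sult1a1 was second highest. Endothelial markers, none of the 6 at 0, had summed levels of 12.56 to 12.97 in on and 12.58 to 12.84 in off, and were also lowest among on libraries in replicate 1. The part of RNA quality or vessel content in the Sult1a1 result was not tested. Of its 1507 exon bases, 61 overlap Sgf29 on the other strand.

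**Figure D2:**
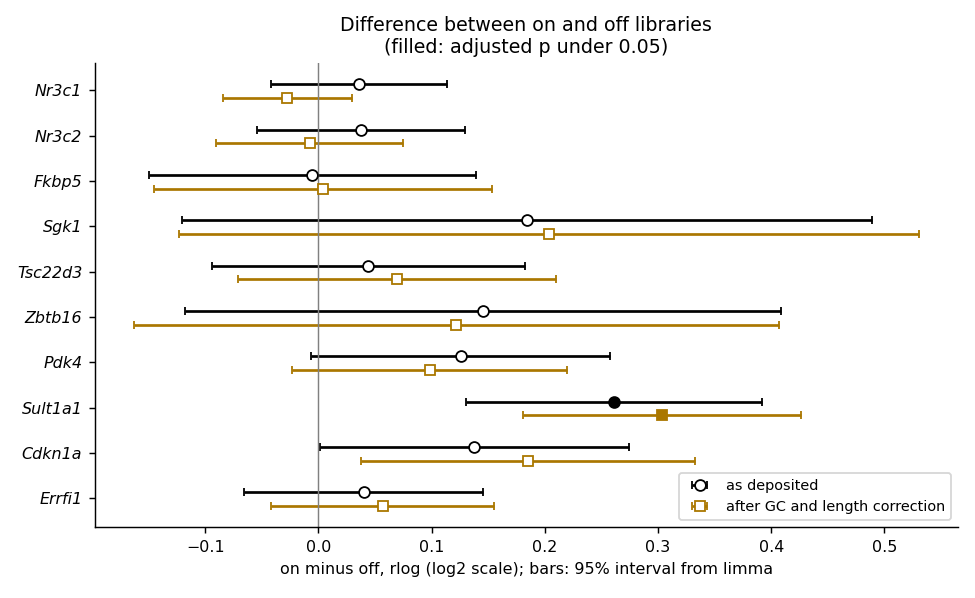
Difference between on and off libraries for each of the 10 genes in rlog units (log2 scale), with the 95% interval from limma, as deposited (black circles) and with the trends of GC content and transcript length removed per library (brown squares). Filled symbols passed an adjusted p of 0.05: only Sult1a1 did, at 0.26 before and 0.30 after the correction.

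Cdkn1a encodes the p21 inhibitor of cyclin-dependent kinases, a target of p53 as well as of the glucocorticoid receptor. Its rlog values were 9.54, 9.61, 9.71 and 9.73 in on replicates 1 to 4 and 9.66, 9.45 and 9.42 in the off libraries. Off replicate 1 overlapped the on group, and the other off libraries lay below it. The difference of 0.14 ± 0.06 (SE) had an unadjusted p of 0.048 and did not pass (limma adjusted p = 0.236). It passed in 1 alternative, the GC and length correction without on replicate 1, where 1780 of all tested genes passed. Its difference there was 0.23 ± 0.06 (SE, adjusted p = 0.0317). Of its 3553 exon bases, 273 overlap a gene on the other strand.

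Pdk4 slows the entry of pyruvate into the citric acid cycle and is induced by fasting and glucocorticoids in many tissues. It measured 8.86, 8.79, 8.72 and 8.85 in on replicates 1 to 4 and 8.82, 8.60 and 8.63 in off. Here too off replicate 1 lay inside the on range and off replicates 2 and 3 below it. The difference was 0.13 ± 0.06 (SE, limma adjusted p = 0.262) and 0.20 ± 0.06 (SE) without off replicate 1, when it did not pass either (adjusted p = 0.103).

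Sgk1 spread more between libraries of a group than between groups. Its values were 11.48, 11.75, 11.56 and 12.17 in on replicates 1 to 4 and 11.89, 11.47 and 11.30 in off replicates 1 to 3. On replicate 4 and off replicate 1 were the highest libraries, 1 in each group. The difference was 0.18 ± 0.14 (SE, limma adjusted p = 0.493, 95% interval -0.12 to 0.49). It was 0.35 without off replicate 1 and 0.04 without on replicate 4. Zbtb16 also spread widely within groups, with off replicate 1 again the highest of off but another library the highest of on. It measured 10.28, 10.48, 10.68 and 9.99 in on and 10.42, 10.05 and 10.16 in off, so that on replicate 4, the highest for Sgk1, was the lowest of all 7 for Zbtb16. Its difference was 0.15 ± 0.12 (SE, limma adjusted p = 0.536), 0.27 without on replicate 4 and 0.04 without on replicate 3.

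Fkbp5, an immunophilin that lowers the receptor's affinity for hormone and so closes a feedback loop, did not separate the groups. It measured 10.63, 10.54, 10.57 and 10.42 in on and 10.73, 10.49 and 10.42 in off. The groups overlapped, with a wider spread in off, and the highest library was off replicate 1. The difference was -0.01 ± 0.07 (SE, limma adjusted p = 0.975, 95% interval -0.15 to 0.14), and its sign turned with median centring and after the GC and length correction, to 0.001 and 0.004. Tsc22d3 measured 11.62, 11.67, 11.57 and 11.71 in on and 11.80, 11.46 and 11.54 in off, with a difference of 0.04 ± 0.06 (SE, adjusted p = 0.743) and of -0.03 without off replicate 2. Errfi1 measured 10.39, 10.51, 10.48 and 10.60 in on and 10.48, 10.48 and 10.41 in off, with a difference of 0.04 ± 0.05 (SE, adjusted p = 0.688). For Tsc22d3 the off libraries lay on both sides of the on group, off replicate 1 above it and off replicates 2 and 3 below, and for Errfi1 all off values lay inside the on range.

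The 8 induced genes shared their highest off library, but not their lowest, which was off replicate 2 in 4 genes and off replicate 3 in 4. Off replicate 1 was the highest of the 3 off libraries in 8 of 8 induced genes, by under 0.01 for Errfi1, while over all tested genes it was highest in 33.2%. Their mean deviation from the 7-library mean was 0.10 in off replicate 1, -0.15 in off replicate 2 and -0.15 in off replicate 3. Neither receptor gene followed: both were highest in off replicate 2. In the 23 further induced genes described below, off replicate 1 was highest in 12 (52.2%). Genes vary together across these libraries, so these counts are a description and carry no test. Other lists also peaked together in 1 off library. All 7 neuron markers were highest in off replicate 2 and all 7 oligodendrocyte markers in off replicate 3. All 5 blood genes were highest in off replicate 1, and immediate early genes, which respond to neuronal activity and handling, were lowest there in 6 of 7. The part of blood content or activity in this order was not tested.

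**Figure D3:**
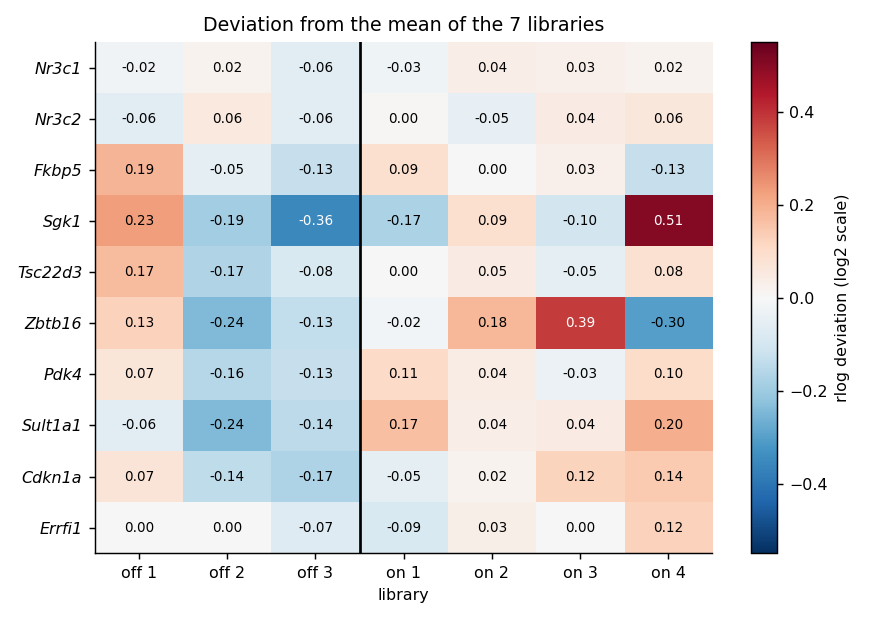
Deviation of each library's rlog value (log2 scale) from the mean of the 7 libraries for the 10 genes, with the 3 off libraries left of the line and the 4 on libraries right of it. In the off 1 column the 8 induced genes are each the highest of the off libraries, while the rows of Nr3c1 and Nr3c2 stay near 0 throughout.

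Among on libraries the order was looser. On replicate 4 was highest in 5 of the 8 induced genes, against 20.4% of all tested genes, but lowest in Fkbp5 and Zbtb16. The mean deviation of the 8 genes was 0.004, 0.06, 0.05 and 0.09 in on replicates 1 to 4. Immediate early genes were highest in on replicate 4 in 7 of 7, with a mean deviation of 0.25 against -0.08 to 0.03 in the other on libraries. Over all 7 libraries that list had a median difference of 0.13, with 0 of 7 genes called by limma and 1 at an unadjusted p under 0.05.

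The spread within groups differed widely among the 10 genes. The pooled standard deviation within groups was 0.30 for Sgk1, and 0.0838% of tested genes had a larger one. It was 0.26 for Zbtb16 (0.190% larger), 0.13 for Fkbp5 (4.18%), 0.12 for Tsc22d3 (4.83%) and 0.11 for Cdkn1a (8.15%). The receptors varied little, with 0.03 for Nr3c1, where 89.2% of tested genes had a larger spread, and 0.06 for Nr3c2 (54.8%). For Sult1a1 it was 0.09 (18.9%), and its difference was 3.04 times this spread, while no other of the 10 genes exceeded 1.37 times.

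**Figure D4:**
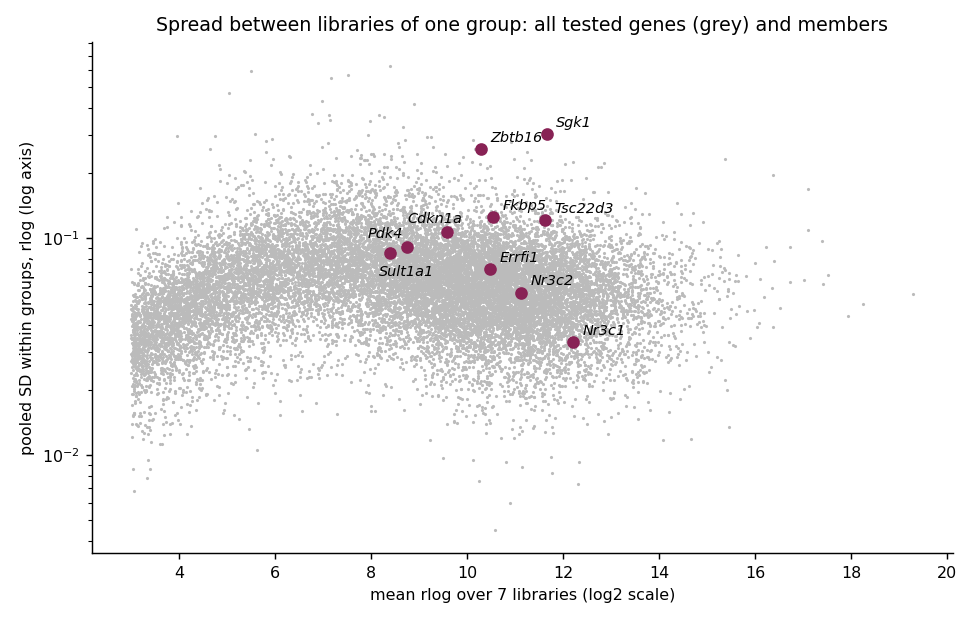
Pooled standard deviation within groups (rlog, log axis) against mean rlog over the 7 libraries (log2 scale) for all tested genes (grey points) and the 10 genes (purple points, named). Sgk1 at 0.30 and Zbtb16 at 0.26 lie at the upper edge of genes of their level, and Nr3c1 at 0.03 lies in the lower part.

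Other glucocorticoid-induced genes, a list of 23 that were all tested, showed 1 called gene, and it was lower, against 2.60% called over all tested genes. At an unadjusted p under 0.05 there were 9 of the 23, against 20.7%. Their median difference was 0.04, with 15 positive and 8 negative, and 0.07 after the GC and length correction. Cebpb, a transcription factor of the acute-phase response, fell by 0.42 ± 0.08 (SE, limma adjusted p = 0.025), with 6.64 to 6.85 in on and 7.04 to 7.43 in off. After the GC and length correction it was -0.34 ± 0.09 (SE) and missed the threshold (adjusted p = 0.104), as it did without on replicate 2, 3 or 4 or off replicate 1 or 3 (0.0527 to 0.0801). Its relative Cebpd did not overlap between groups, at -0.23 ± 0.07 (SE, adjusted p = 0.089). Nedd9, a scaffold of focal adhesions, had 9.00 to 9.07 in on and 8.82 to 8.87 in off, and its difference of 0.18 ± 0.05 (SE) fell just short at an adjusted p of 0.05001. It passed in 8 of 19 alternatives, among them the fit without on replicate 1 (adjusted p = 0.0144), where 2917 of all tested genes passed. The 8 include the main fit at a threshold of 0.1, where passing was fixed. The difference of Nedd9 was 0.13 after the correction (adjusted p = 0.132). Plin4, a lipid droplet protein, had the largest positive difference of the list and is named after its values were seen: 9.64, 9.32, 8.98 and 8.67 in on and 8.93, 8.11 and 8.62 in off, a difference of 0.60 ± 0.19 (SE, adjusted p = 0.106). Of genes often used as readouts of hormone, Per1 differed by 0.21 ± 0.09 (SE, adjusted p = 0.219), Klf9 by -0.01 ± 0.04 (SE, adjusted p = 0.876), and the metallothioneins Mt1 and Mt2 by -0.19 ± 0.07 (SE, adjusted p = 0.132) and -0.10 ± 0.08 (SE, adjusted p = 0.498); these 4 were also chosen after their values were seen. With the GC and length correction Mt1 was -0.09 and the sign of Mt2 turned, to 0.06. Per1 is a clock gene as well, and was highest in on replicate 4, at 11.73 against 11.11 to 11.39 elsewhere.

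Chaperones, immunophilins and other partners of the Hsp90 system, not all of which hold the receptor, gave 1 called gene of 12. The share over all tested genes was 2.60%. At an unadjusted p under 0.05 there were 3, against 20.7%. Of the 12 differences 9 were negative, with a median of -0.03, against 8673 negative of 17896 over all tested genes. Stub1, a ubiquitin ligase that works with Hsp70 and Hsp90, fell by 0.19 ± 0.04 (SE, limma adjusted p = 0.0254), with 11.49 to 11.58 in on and 11.69 to 11.76 in off. After the GC and length correction its difference was -0.05 ± 0.03 (SE, adjusted p = 0.463), and it missed the threshold without on replicate 2, 3 or 4 or off replicate 2 or 3 (0.0594 to 0.160). Fkbp4, the immunophilin that carries the receptor towards the nucleus, had 12.19 to 12.27 in on and 12.34 to 12.35 in off, without overlap, and did not pass (-0.10 ± 0.04, SE, adjusted p = 0.129). It passed without on replicate 1 (-0.11, adjusted p = 0.0491), as did 2917 of all tested genes. After the GC and length correction it was -0.04 (adjusted p = 0.548). Cdc37, which delivers kinases to Hsp90, differed by -0.13 ± 0.05 (SE, adjusted p = 0.142). It was -0.19 after the correction (adjusted p = 0.085), and passed without on replicate 1 (-0.16, adjusted p = 0.0137), after the correction without that library (-0.23, adjusted p = 0.00237) and with array weights (adjusted p = 0.0292). The median of the list after the correction was 0.01.

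Coregulators that the receptor recruits had 11 of 12 positive differences, against 9223 of 17896 over all tested genes, and a median of 0.09. By limma 0 of 12 were called, against 2.60% of all tested genes, and 6 had an unadjusted p under 0.05, against 20.7%. Med1, the Mediator subunit that nuclear receptors contact, had 10.97 to 11.14 in on and 10.87 to 10.90 in off (0.16 ± 0.04, SE, adjusted p = 0.0637). The acetyltransferase gene Ep300 differed by 0.14 ± 0.04 (SE, adjusted p = 0.1001) and the corepressor gene Ncor1 by 0.11 ± 0.04 (SE, adjusted p = 0.137). Without on replicate 1, 2917 of all tested genes passed. These 3 genes were among them, at adjusted p of 0.0059 for Med1, 0.00562 for Ep300 and 0.0188 for Ncor1. Their differences after the GC and length correction were 0.08, 0.06 and 0.03, and none of the 3 passed, nor did they after the correction without on replicate 1 (adjusted p = 0.0829, 0.107 and 0.386). The median of the list was 0.03 after the correction.

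Genes of corticosteroid metabolism and the stress axis gave 0 calls by limma among 13 tested, against 2.60% of all tested genes. At an unadjusted p under 0.05 there were 2, against 20.7%. Of the 13 differences 10 were negative, against 8673 of 17896 over all tested genes. The median was -0.04, before and after the GC and length correction. Crhbp, which binds and neutralises corticotropin-releasing hormone, had 9.00 to 9.11 in on and 9.18 to 9.41 in off, without overlap (-0.22 ± 0.06, SE, adjusted p = 0.0645). The hormone genes Avp (-0.27 ± 0.12, SE, adjusted p = 0.232) and Crh (-0.13 ± 0.06, SE, adjusted p = 0.257) overlapped between groups, and Avp was 8.33 in on replicate 1 against 7.65 to 7.82 in the other on libraries. Without on replicate 1 both Avp (-0.41, adjusted p = 0.00078) and Crhbp (-0.24, adjusted p = 0.012) passed, as did 2917 of all tested genes. Avp with the GC and length correction was -0.04 (adjusted p = 0.885), and after it without on replicate 1 it was -0.16 and did not pass (adjusted p = 0.142), while Crhbp did (-0.21, adjusted p = 0.0427). Hsd11b2, which inactivates corticosterone, was below the filter on low values. Hsd11b1, which regenerates it, differed by -0.07 ± 0.05 (SE, adjusted p = 0.407). Both are named for their role, with their values already seen.

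**Figure D5:**
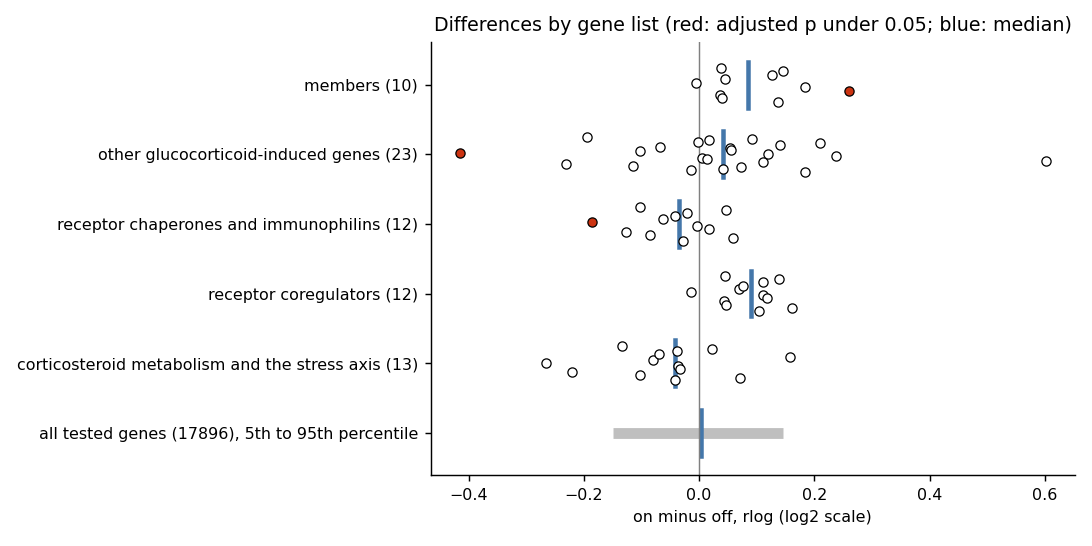
Difference between on and off libraries in rlog units (log2 scale) for each tested gene of 5 lists, with the list median as a blue line and genes past an adjusted p of 0.05 in red, above the 5th to 95th percentile of all 17896 tested genes (-0.15 to 0.15, grey bar). The 3 red points are Sult1a1 on the right and Cebpb and Stub1 on the left.

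The genes whose 7 values followed Nr3c1 most closely were Inpp5f, Gipc3 and Dclk1, by the root mean square difference of deviations from the gene mean. These differences were 0.0077, 0.0079 and 0.0091, against a median of 0.0697 over all tested genes with a usable symbol. For Fkbp5 the closest were Rpl39, Smpdl3b and Ms4a6c, at 0.0366, 0.0449 and 0.0473, against a median of 0.123. The libraries are few and shared, and genes with little spread lie close to each other by construction, so likeness here is a description of the 7 values. Closeness was measured over on and off libraries together, so these 6 genes largely share the group difference of Nr3c1 or Fkbp5. None of the 6 passed the on against off threshold in limma, and 0 had an unadjusted p under 0.05. That outcome was close to fixed by the choice, and nothing is drawn from it.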

How the data were processed

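The deposited table holds rlog values on the log2 scale, 1 column per library, made by the authors; per the submitters' processing notes the build was GRCm38 and the tools included DESeq2 1.16.1, Subread 1.5.3 and STAR 2.5.2, with no role or order given. Per the labels, the library kit was TruSeq Stranded mRNA (Illumina), for poly(A) RNA. Of 48526 genes, those with a mean value of 3 or more, 17896, were tested with limma 3.58.1 in R 4.3.3: group term, intensity trend, two-sided, Benjamini-Hochberg adjustment over all tested genes, threshold 0.05. SE are moderated; intervals are at 95%. Symbols, positions and longest transcripts came from GENCODE M21 (GRCm38). The GC and length correction subtracted smooth trends fitted per library in 3 classes of mean value with mgcv 1.9.3. The method was tested on simulated data. The genes, lists and alternatives were chosen with earlier results of these data known. Named genes were the 10, from each of the 4 pathway lists the 3 with the smallest p and every called gene, and the 3 most alike to Nr3c1 and to Fkbp5; Plin4, Per1, Klf9, Mt1, Mt2, Hsd11b1 and Hsd11b2 fall outside this rule and were added after their values were seen. Some genes of the table are not reported here. No libraries held identical values.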

Additional observations from a re-analysis of the deposited data

Results flagged for a closer look

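Dixon's gap test was applied to the 4 on libraries for 45 values, and in 3 of them 1 library stood apart. By chance about 1 in 20 groups does so, which is 2.25 of 45. In each of the 3 it was on replicate 1. Cebpd was 6.70 there against 6.91 to 6.94 in the other on libraries. The mean deviation of endothelial markers was -0.225 there against 0.0899 to 0.143, and that of nuclear RNA genes was -0.113 against 0.185 to 0.247. No value of the 10 receptor and induced genes was among them.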

How the results depend on the processing

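Sult1a1 stayed positive in all 19 alternatives, at 0.22 to 0.30, and passed in 11 (adjusted p 0.0115 to 0.258 over all 19). The 11 include the main fit at a threshold of 0.1, where passing was fixed. The number of the 10 genes called, 1, was 0 with no filter, 0 with the replicate block, 0 with the block after the GC and length correction and 2 after that correction without on replicate 1; it was 0 to 1 with 1 library left out. Over the 4 pathway lists the 2 calls became 0 with no filter, 13 with array weights, 1 with the replicate block, 6 at a threshold of 0.1, 0 after the correction, 0 after it with the block, 7 after it without on replicate 1, and 0 to 18 with 1 library left out, 18 without on replicate 1. Over all genes the 466 calls (146 higher, 320 lower) became 7 with no filter, 237 without the intensity trend, 2215 (1081 higher, 1134 lower) with array weights, 30 with the replicate block, 1182 at a threshold of 0.1, 105 (29 higher, 76 lower) after the correction, 2 after it with the block, 1780 (974 higher, 806 lower) after it without on replicate 1, and 43 to 2917 with 1 library left out, 2917 without on replicate 1. With median centring 165 were higher and 259 lower. The cause was not tested. The replicate numbers did not pair the samples: correlations of same-numbered deviations were -0.229, -0.1004 and 0.0176, and no library correlated best with its own number. On replicate 4 has no off counterpart, so the block drops it from the difference.

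Signs turned as follows, beside that of Mt2 given above. After the correction, after it with the block and after it without on replicate 1, Nr3c1 was -0.0274, -0.0257 and -0.0316, Nr3c2 -0.0076, -0.0226 and -0.0135, Inpp5f -0.0005, -0.0023 and -0.0001, Dclk1 -0.0406, -0.0402 and -0.0389, and Rpl39 0.0623, 0.0803 and 0.0599. Fkbp5 was 0.001 with median centring, 0.0354 with the block, 0.0038 after the correction, and 0.0421 after it with the block. Smpdl3b was 0.0018 after the correction with the block. Ms4a6c was -0.0016 with array weights, -0.0064 after the correction, and -0.0427 after it without on replicate 1. With 1 library left out, Fkbp5 ran from -0.0708 without off replicate 3 to 0.0868 without off replicate 1, Tsc22d3 from -0.0261 without off replicate 2 to 0.1438 without off replicate 1, Rpl39 from -0.1136 to 0.0153 and Smpdl3b from -0.0763 to 0.0352 (without off replicates 3 and 1), and Ms4a6c from -0.0374 without off replicate 2 to 0.0919 without off replicate 1.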
